A study of Mus musculus with 10 samples.

Results

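Mme, which encodes neprilysin, was set beside 7 other genes of peptide-cleaving enzymes of the cell surface, Ece1, Anpep, Enpep, Dpp4, Ace, Lnpep and Fap. Mme was chosen by its Jag1+/-Rfng+/- minus control difference on these same arrays, seen in an earlier analysis, and the other genes were listed for their enzyme class. Of the 8 listed genes, 7 had a probe set with exactly 1 gene symbol, out of 22180 genes with such a probe set, and each of the 7 had a single one. Lnpep was not analysed here. The arrays were hybridized with RNA of portal tracts, the parts of the liver that hold the bile ducts, portal vein branches and hepatic arteries with their fibroblasts. The tracts were cut by laser from frozen liver of mice aged 1 week, 12 to 20 tracts to a replicate. A group of 5 arrays came from Jag1+/-Rfng+/- mice, heterozygous for the Notch ligand gene Jag1 and for Rfng, whose product adds sugar to Notch receptors, and the other group of 5 came from control mice. The labels give a strain, C57Bl/6J, for the controls but none for the Jag1+/-Rfng+/- mice, so strain and genotype cannot be told apart, and they do not say what kind of alleles these are or that each sample is a separate mouse. The p-values therefore measure the spread between these samples, which may in part be technical.

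Surface peptidases sit in the plasma membrane with their catalytic domain outside the cell, where they start, change or end the signals of small peptides. Neprilysin cleaves enkephalins, tachykinins, bradykinin, endothelins and natriuretic peptides. It is abundant in kidney and intestinal brush borders, and in human liver its antigen marks bile canaliculi. Endothelin-converting enzyme, from Ece1, belongs to the same family and releases active endothelin from its precursor. Aminopeptidase N (Anpep) and aminopeptidase A (Enpep) trim peptides from the amino end, and aminopeptidase A converts angiotensin II to angiotensin III. Dipeptidyl peptidase 4 (Dpp4) inactivates incretins and the chemokine from Cxcl12, angiotensin-converting enzyme (Ace) makes angiotensin II, and fibroblast activation protein (Fap) is a close relative of Dpp4 found on activated fibroblasts.

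Array signals are given on a log2 scale. They have no read depth, and precision rests on how many arrays there are. The 2 genes Jag1 and Rfng differed by -1.33 and -0.46 log2 between Jag1+/-Rfng+/- and control arrays (limma adjusted p = 0.559 and 0.416). The groups overlapped for Jag1 and did not overlap for Rfng. To judge low readings, Xist was taken on the arrays where the Y-linked genes were high, and the 3 Y-linked markers on the other arrays, and these readings of absent genes lay between 1.82 and 2.91. Jag1+/-Rfng+/- replicate 5 stood apart. Its lowest correlation with another array was 0.956, against at least 0.969 among the other 9 arrays. Its 4 measured erythroid markers averaged 2.55 log2 above the control mean, against -0.19 to 0.33 on the other 4 Jag1+/-Rfng+/- arrays and -0.44 to 0.36 on the controls. Its sample name carries the suffix excl, which the labels do not explain, so results are given with and without it. Of the fixed markers, 25 of 30 for bile duct epithelium and 20 of 26 for portal fibroblasts read above the absent range on all 10 arrays. So did 19 of 20 hepatocyte and all 12 macrophage markers, so the captured tissue held several cell types. In such mixed tissue, fewer cells of a type and less RNA per cell cannot be told apart.

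Mme was low on every Jag1+/-Rfng+/- array. It read 2.78, 3.44, 3.43, 2.85 and 3.05 on Jag1+/-Rfng+/- replicates 1 to 5, against 5.32, 5.38, 5.28, 5.42 and 4.58 on control replicates 1 to 5 (log2 levels, probe set 17397990, chromosome 3). All 5 Jag1+/-Rfng+/- arrays lay below all 5 controls, with a gap of 1.14 log2 between the nearest arrays. Control replicates 1 to 4 lay between 5.28 and 5.42, and replicate 5 lay below them. The Jag1+/-Rfng+/- mean was 3.11 ± 0.31 and the control mean 5.20 ± 0.35 (SD, n = 5 each), a difference of -2.09 ± 0.19 log2 (SE). This difference chose the gene, so it is described here without a test. Jag1+/-Rfng+/- replicates 1 and 4 read within the absent range, so on these arrays the fall could be larger than it reads. Jag1+/-Rfng+/- replicates 2, 3 and 5 read above that range. Leaving out any 1 array gave differences of -2.24 to -2.003.

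The other metallopeptidase of the same family on the list was close in both groups. Ece1 read 7.74, 8.39, 8.25, 8.34 and 7.77 on the Jag1+/-Rfng+/- arrays, against 8.20, 8.21, 8.27, 8.41 and 7.97 on the control arrays (log2 levels, probe set 17420347, chromosome 4). The groups overlapped, with Jag1+/-Rfng+/- replicates 1 and 5 below all controls. Its difference was -0.11 log2, with a 95% interval of -0.44 to 0.21.

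The 2 aminopeptidase genes were lower on 1 array more than between the groups. Anpep read 8.63, 9.07, 8.71, 8.88 and 7.82 on the Jag1+/-Rfng+/- arrays, against 8.87, 8.88, 8.83, 9.13 and 8.89 on the control arrays (log2 levels, probe set 17492431, chromosome 7). Enpep read 5.90, 6.02, 5.92, 5.86 and 4.93 on the Jag1+/-Rfng+/- arrays, against 5.98, 5.73, 5.88, 6.40 and 5.88 on the control arrays (log2 levels, probe set 17410251, chromosome 3). For both genes the lowest reading of all was that of Jag1+/-Rfng+/- replicate 5, the array with the high erythroid markers. The difference of Anpep was -0.30 log2 (95% interval -0.73 to 0.13), and -0.10 (-0.36 to 0.16) without that array. The difference of Enpep was -0.25 log2 (95% interval -0.69 to 0.20), and -0.05 (-0.34 to 0.24) without it. With the mean of the erythroid genes as a covariate, chosen after the data were seen, the differences were -0.12 for Anpep and -0.07 for Enpep.

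Dpp4 varied among the controls by almost as much as over all arrays. It read 7.72, 7.94, 8.08, 8.03 and 7.23 on the Jag1+/-Rfng+/- arrays, against 7.87, 7.20, 7.19, 8.05 and 8.05 on the control arrays (log2 levels, probe set 17385719, chromosome 2). Control replicates 2 and 3 and Jag1+/-Rfng+/- replicate 5 formed the low end, and the groups overlapped. Its difference was 0.13 log2 (95% interval -0.35 to 0.61), and 0.27 (-0.18 to 0.72) without Jag1+/-Rfng+/- replicate 5. Fap lies close to Dpp4 on chromosome 2, with 1 protein-coding gene, Gcg, between them in the RefSeq order. Fap read 2.44, 2.59, 2.42, 2.59 and 2.52 on the Jag1+/-Rfng+/- arrays, against 2.75, 2.81, 3.19, 2.70 and 2.61 on the control arrays (log2 levels, probe set 17385767). Only control replicate 3 read above the absent range, so a fall of Fap could hardly be read on these arrays. Its difference was -0.30 log2 (95% interval -0.55 to -0.04), and the nearest arrays of the 2 groups were 0.01 apart. With the mean of the bile duct list as a covariate the difference of Fap was -0.11.

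Ace read low in both groups. Its values were 4.08, 3.87, 3.58, 3.63 and 4.09 on the Jag1+/-Rfng+/- arrays, against 3.98, 3.69, 4.18, 3.64 and 3.08 on the control arrays (log2 levels, probe set 17257444, chromosome 11). The groups overlapped, and control replicate 5 was the lowest array. The difference was 0.13 log2 (95% interval -0.29 to 0.55).

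**Figure D1:**
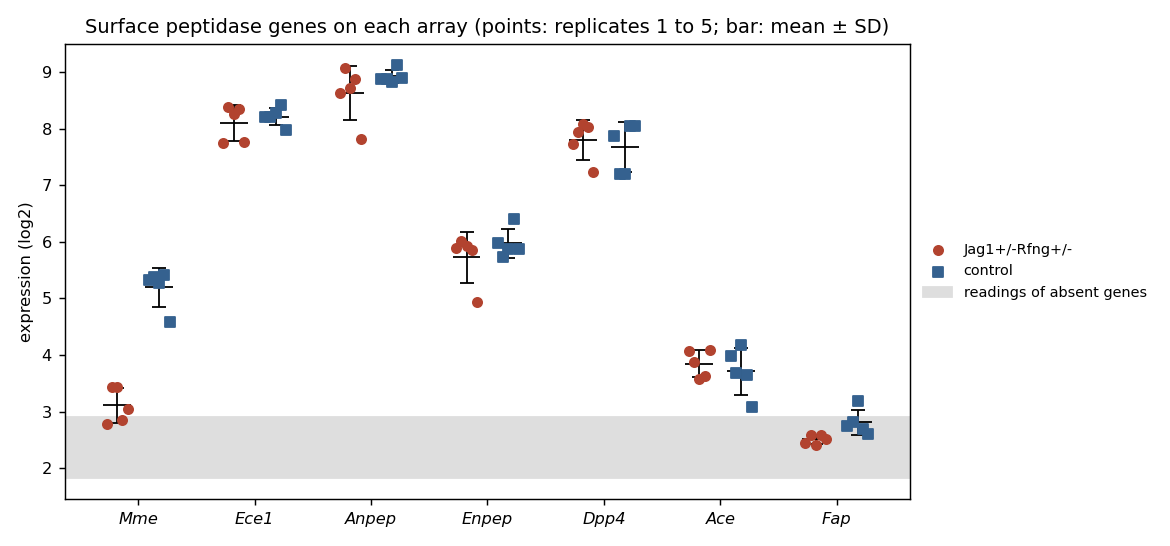
Log2 expression of the 7 measured peptidase genes on each array (circles for Jag1+/-Rfng+/- and squares for control replicates, bars for mean ± SD, n = 5 each), with the range of absent genes in grey. Mme is the gene whose groups stand well apart, 3.11 against 5.20, and Fap lies in the grey range in nearly all arrays.

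Among the members, the difference of Mme stood outside the range of the others, and this is the contrast that chose it. The 6 other measured members differed by -0.30 to 0.13 log2, 4 lower and 2 higher, and the lowest bound of their 95% intervals was -0.73, while the interval of Mme was -2.50 to -1.68. Of the 6, 0 passed an adjusted p of 0.05 in limma, adjusted over all 22180 genes, with a lowest adjusted p of 0.659 (Fap), and 1, Fap, had an unadjusted p under 0.05. With eBayes run with trend and robust, 0 passed and 1 had an unadjusted p under 0.05. Over all genes 0.00902% passed the adjusted threshold and 6.76% had an unadjusted p under 0.05, 3.79% lower and 2.98% higher. The groups did not overlap for 2 of the 7 measured members, both lower in Jag1+/-Rfng+/-, where 1.38% of all genes lay apart and 0.766% in that direction. Nothing is read from these counts, since this contrast chose Mme. Whether the change of Mme differs from that of the other peptidases was likewise not tested. A p above the threshold does not show that the other genes were alike in the groups, and their intervals give the changes that 5 arrays a group leave possible. The sample names hold a number of unstated meaning, and a single number occurs in both groups, on 7 arrays (4 Jag1+/-Rfng+/- and 3 control). Within these same-number arrays Mme differed by -2.17 log2 and the 6 others by -0.37 (Fap) to 0.34 (Dpp4). Without Jag1+/-Rfng+/- replicate 5, these arrays gave -2.12 for Mme and 0.54 for Dpp4.

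**Figure D2:**
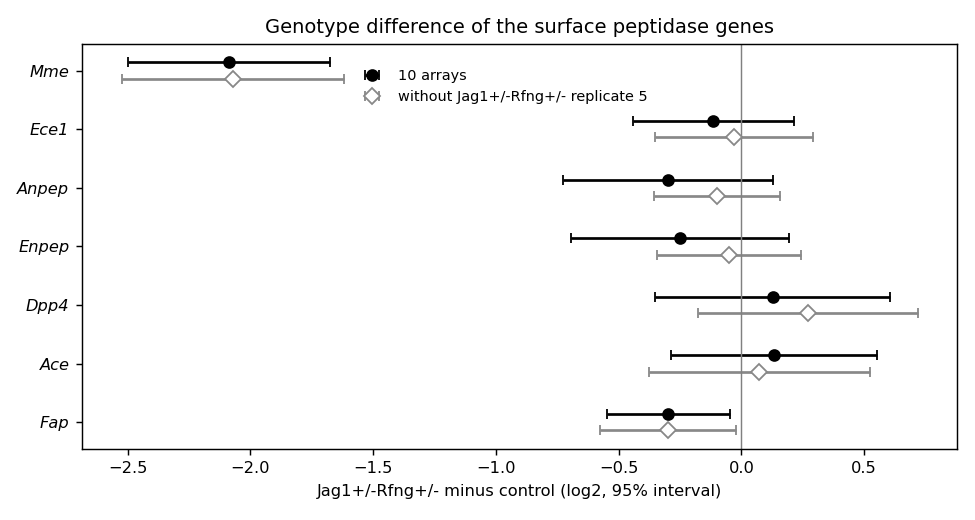
Difference in log2 expression, Jag1+/-Rfng+/- minus control, with 95% intervals from limma for each measured peptidase gene over all 10 arrays (filled circles) and without Jag1+/-Rfng+/- replicate 5 (open diamonds). Mme lies at -2.09, and the points of the 6 other genes lie between -0.30 and 0.27.

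The other genes around these enzymes gave no call. The lists held 103 genes in all, of which 99 were measured. Of these, 0 passed an adjusted p of 0.05 in limma over all genes, 3 were higher and 4 lower at an unadjusted p under 0.05 (7.07%, against 6.76% of all genes), and their median difference was 0.03 log2, against -0.01 for all genes. Among the 5 other genes of the neprilysin family, 3 were higher and 2 lower, with 0 at an unadjusted p under 0.05. Kel, which encodes a blood group protein of red cells, read 4.15, 4.52, 4.69, 5.59 and 8.25 on the Jag1+/-Rfng+/- arrays, against 5.81, 4.44, 4.38, 4.86 and 5.32 on the control arrays. Its high reading was that of Jag1+/-Rfng+/- replicate 5, and its difference of 0.48 became -0.22 without that array. Phex, an endopeptidase gene of bone, and Mmel1, the closest relative of Mme, had means within the absent range in both groups and differed by 0.27 and -0.08. The aminopeptidase relatives Rnpep, Npepps and Erap1 differed by 0.15, 0.08 and -0.10, and the dipeptidyl peptidase relatives Dpp9, Dpp8 and Dpp6 by -0.24, -0.06 and -0.03. Of the 16 other surface enzymes, metallopeptidases and gamma-glutamyltransferases, 1 was higher at an unadjusted p under 0.05. That was the dipeptidase gene Dpep3 (0.25 log2), whose highest reading of 2.23 was within the absent range, and its relative Dpep2 and the shedding protease gene Adam17 differed by 0.26 and -0.26. Of the 12 membrane serine and aspartic proteases, 0 reached that level. The largest difference in size among them was that of St14, the gene of the epithelial protease matriptase, at -0.54 ± 0.26 log2 (SE), while Tmprss2 and Hpn, the gene of the hepatocyte protease hepsin, differed by 0.34 and 0.28.

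Peptides that these enzymes cleave, and their receptors, were measured too. Among 26 peptide genes 19 were higher and 7 lower, where 10766 of all 22180 genes were higher and 11414 lower. In limma 1 peptide gene in each direction had an unadjusted p under 0.05 (7.69%, against 6.76% of all genes). Past the adjusted threshold there were 0. Cxcl12, the gene of a chemokine that Dpp4 inactivates, read 8.30, 9.28, 8.96, 9.16 and 8.49 on the Jag1+/-Rfng+/- arrays, against 9.35, 9.31, 9.38, 9.37 and 9.29 on the control arrays. The controls were nearly level, and all Jag1+/-Rfng+/- arrays lay below them, replicate 2 only just. Its difference was -0.50 ± 0.17 log2 (SE, limma adjusted p = 0.609). Edn2, an endothelin gene, and Cck, the cholecystokinin gene, differed by 0.29 and 0.24, with Cck within the absent range on all arrays. Among 31 receptor genes 17 were higher and 14 lower. At an unadjusted p under 0.05 in limma, 1 receptor gene was higher and 3 were lower (12.9%, against 6.76% of all genes). Past the adjusted threshold there were 0. Npr3 encodes the clearance receptor, which takes up the natriuretic peptides that neprilysin degrades. It read 4.28, 5.30, 4.38, 5.03 and 5.36 on the Jag1+/-Rfng+/- arrays, against 5.43, 6.76, 6.40, 5.53 and 5.55 on the control arrays (log2 levels, probe set 17316043, chromosome 15). All Jag1+/-Rfng+/- arrays lay below all controls, the nearest by little. The difference was -1.07 ± 0.30 log2 (SE), and it did not pass (limma adjusted p = 0.459). Ackr3, which encodes a scavenger receptor of the Cxcl12 chemokine, differed by -0.51, with Jag1+/-Rfng+/- replicate 4 at 5.36 above every control. Mas1, an angiotensin peptide receptor gene, differed by -0.25 and read at most 2.40, within the absent range.

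**Figure D3:**
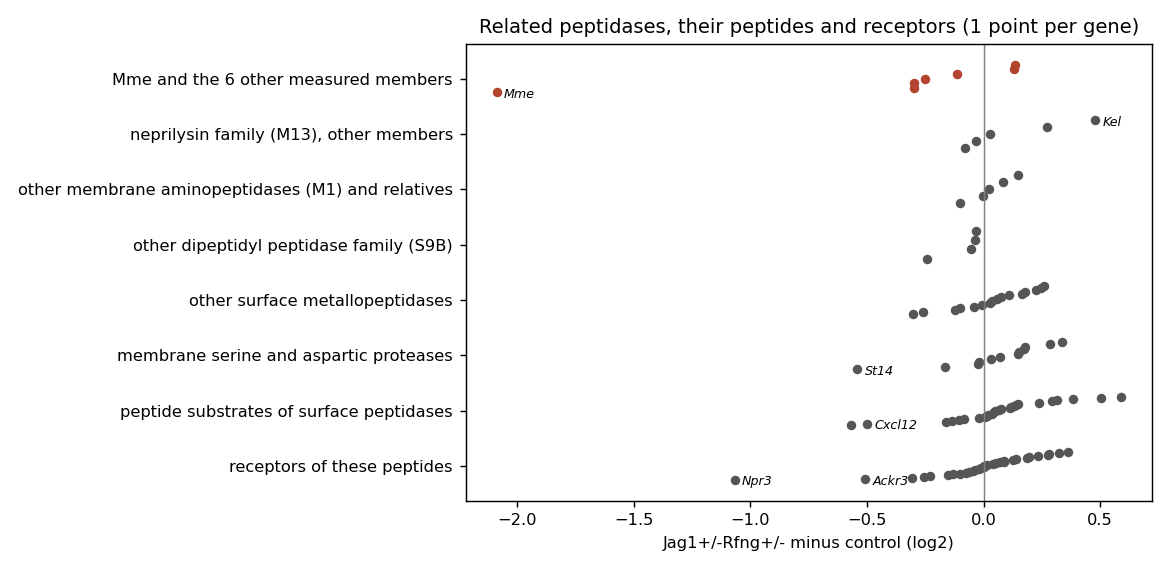
Jag1+/-Rfng+/- minus control differences (log2) of the 7 measured members in red and of the measured genes of each related list in grey, 1 point per gene, with Kel, St14, Cxcl12, Npr3 and Ackr3 named. Mme, which was chosen by this difference, lies at -2.09, and the lowest point of the related lists is Npr3 at -1.07. The cell type lists are not shown, and their genes reached falls of that size too. Differences ran from -2.60 to 0.42 in the portal fibroblast list and from -2.08 to 1.24 in the bile duct list. The list of other surface metallopeptidases also holds gamma-glutamyltransferases.

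The readings of Mme were set beside the mean of the portal fibroblast and bile duct lists on each array. The mean of the portal fibroblast list, relative to the control mean, was -1.02, -0.36, -0.60, 0.03 and -1.07 on Jag1+/-Rfng+/- replicates 1 to 5, against 0.00, 0.27, 0.43, -0.55 and -0.15 on control replicates 1 to 5. Of the 26 measured genes of this list, 21 were lower and 5 higher in Jag1+/-Rfng+/- arrays, with a median difference of -0.62 log2. At an unadjusted p under 0.05 in limma, 10 were lower and 0 higher (38.5%, against 6.76% of all genes), with 0 past the adjusted threshold. Jag1+/-Rfng+/- replicate 4 and control replicate 1 had nearly equal fibroblast means (0.03 and 0.00), and Mme read 2.85 and 5.32 on them. Jag1+/-Rfng+/- replicate 3 had a fibroblast mean of -0.60, near the -0.55 of control replicate 4, and Mme read 3.43 on that Jag1+/-Rfng+/- array, against 5.42 on that control array, the highest reading of all 10. The genes of the bile duct list went both ways between the groups, 10 higher and 20 lower in Jag1+/-Rfng+/- arrays. At an unadjusted p under 0.05 in limma, 6 were higher and 11 lower (56.7%, against 6.76% of all genes), with 0 past the adjusted threshold. The mean of this list is therefore no plain measure of duct content. The bile duct list averaged -0.56, -0.09, -0.39, -0.13 and -0.55 on the Jag1+/-Rfng+/- arrays, against 0.06, 0.13, 0.43, -0.25 and -0.36 on the control arrays. At duct means of -0.39 and -0.36, Jag1+/-Rfng+/- replicate 3 read 3.43 and control replicate 5 read 4.58 for Mme. With the fibroblast mean as a covariate the difference of Mme was -2.03 log2, and with the duct mean as a covariate it was -1.89. Mme was chosen by its difference between these groups, so arrays matched in a list mean would differ in Mme in any case. Whether cell content bears on the fall was not tested.

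**Figure D4:**
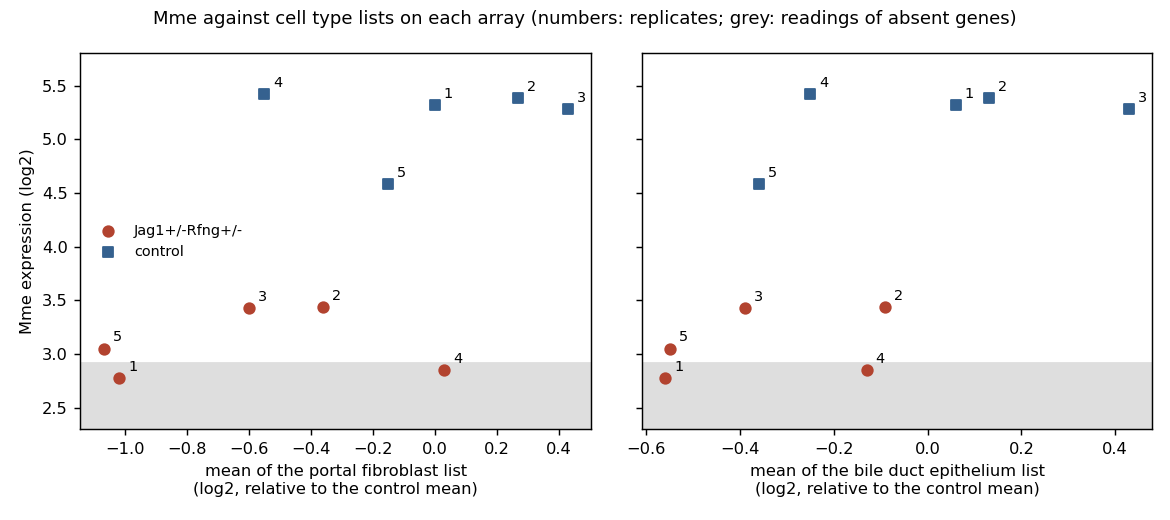
Log2 expression of Mme on each array against the mean of the portal fibroblast list (left) and of the bile duct list (right), both relative to the control mean, with replicate numbers beside the points and the range of absent genes in grey. The groups overlap in the list means but not in Mme, which was chosen by its difference between them. Jag1+/-Rfng+/- replicate 4 (2.85) and control replicate 1 (5.32) had nearly equal fibroblast means. Whether cell content bears on the fall of Mme was not tested.

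Covariation within the groups used differences that did not choose Mme. A fit with group and Mme as terms gave the slope of every other gene on Mme among arrays of the same group, and r below is the correlation of the deviations from the 2 group means over 10 arrays. With Mme, limma called 0 of 22179 genes at an adjusted p of 0.05 (0%), with 943 (4.25%) at an unadjusted p under 0.05. Of the portal fibroblast list, 0 of 26 genes reached the unadjusted level, and the median r was 0.17, against -0.02 for all genes. Of the bile duct list 4 of 30 did, with a median r of 0.30. Both medians rested on single arrays. Without control replicate 5, the lowest control for Mme, the duct median was 0.03 and the fibroblast median 0.049, and without Jag1+/-Rfng+/- replicate 1 the fibroblast median was 0.045. Within the 7 same-number arrays the medians were -0.21 for fibroblasts and -0.06 for ducts. No fibroblast or duct gene passed the adjusted threshold. Mme read within the absent range on Jag1+/-Rfng+/- replicates 1 and 4, and 3.05 to 3.44 on the other Jag1+/-Rfng+/- arrays. The r of Mme therefore rests in part on readings at or near background. The lack of calls does not show a lack of covariation.

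The duct and fibroblast genes with the highest r were all of the duct list, with values that these tests did not call. They were picked by r on these same arrays. The exact permutation p given for them are not adjusted and serve as descriptions only. Cldn3, a tight junction gene, had r = 0.75 (exact permutation within groups, two-sided p = 0.0395) and Spearman's rho of the ranks within groups of 0.80 (exact permutation p = 0.0192), with a limma adjusted p of 0.9997. Cldn3 read 6.65, 6.99, 6.98, 6.95 and 6.67 on the Jag1+/-Rfng+/- arrays, against 6.74, 6.54, 6.51, 6.64 and 6.30 on the control arrays. It was lowest in each group on the array, Jag1+/-Rfng+/- replicate 1 and control replicate 5, where Mme was lowest too. Without these 2 arrays, the farthest in Mme from their group means, r was 0.37. Slc4a2, an anion exchanger gene of the duct, had r = 0.72 (exact permutation p = 0.0281, rho = 0.45, exact permutation p = 0.246) and r = 0.54 without these arrays. Pkhd1 and Dcdc2a, genes of the cilium of duct cells, and the transcription factor gene Onecut1 had r of 0.64, 0.64 and 0.56, which became 0.07, 0.19 and -0.01 without them. The lowest r were those of the fibroblast genes Dpep1, Smoc2, Dcn (decorin) and Pdgfra, and of the water channel gene Aqp1 (-0.57, -0.43, -0.40, -0.33 and -0.26). Without the same 2 arrays these were -0.16, -0.53, -0.42, -0.47 and -0.32, and Dpep1 had 0.046 without control replicate 5 alone. Thy1 and Eln, which mark portal fibroblasts, had r of 0.26 and 0.10, the duct genes Krt7, Krt19, Epcam and Sox9 had 0.42, 0.24, 0.53 and 0.36, and the hepatocyte gene Alb had -0.24.

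Over all genes, the closest in pattern to Mme by this r were Nron, a noncoding RNA gene (0.96), Mief1, a gene of mitochondrial dynamics (0.93), Col4a4, a basement membrane collagen gene (0.91), Ceacam16 (0.90) and Tyw1 (0.90). The most opposed were Xlr3a (-0.92), the kinesin gene Kif5b (-0.92), Pold4, a DNA polymerase subunit gene (-0.92), the sialidase gene Neu2 (-0.92) and Ceacam18 (-0.91). They were taken after leaving out predicted genes, small RNAs, sensory and immune receptors and sex-linked markers, and the lowest r of all 22179 genes was -0.96. Nron, Neu2 and Ceacam18 did not read above the absent range on any array, and Col4a4 did so only on control replicate 4, so their r rests on readings at background. Each of the 10 genes had a limma adjusted p of 0.9997.

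The other peptidases were compared with the same cell type lists in the same way. Ece1 had a median r of 0.45 with the portal fibroblast list, 8 of 26 genes at an unadjusted p under 0.05, and of 0.45 with the bile duct list, 10 of 30 genes, against 8.26% of all genes, and 0 of 22179 genes passed the adjusted threshold (0%). Without Jag1+/-Rfng+/- replicate 5 the medians of Ece1 were 0.32 and 0.31, and on the same-number arrays without it they were -0.45 and -0.22. Fap had medians of 0.48 with fibroblast and 0.59 with duct genes, with 7 of 26 and 15 of 30 genes at the unadjusted level, against 8.88% of all genes, and 0 genes passed the adjusted threshold (0%). With the bile duct mean as a covariate the fibroblast median of Fap was -0.22. Its readings were in the absent range on 9 of 10 arrays. Ace had medians of 0.01 and 0.24, with 0 genes past the adjusted threshold (0%) and 964 (4.35%) at the unadjusted level.

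Anpep, Enpep and Dpp4 had calls in this fit, and their number depended on single arrays. Anpep had 134 genes past the adjusted threshold (0.604%), Enpep 56 (0.252%) and Dpp4 10 (0.0451%) in limma over 22179 genes each. Without Jag1+/-Rfng+/- replicate 5 the counts were 0 for Anpep, 0 for Enpep and 1 for Dpp4, with 1107, 2356 and 2241 genes at an unadjusted p under 0.05 (over all 10 arrays 12.5%, 12.5% and 8.9% of genes). Leaving out each other array in turn gave 18 to 175 genes for Anpep (the fewest without Jag1+/-Rfng+/- replicate 4), 1 to 280 for Enpep (the fewest without Jag1+/-Rfng+/- replicate 2 and the most without control replicate 4) and 0 to 8 for Dpp4 (0 without Jag1+/-Rfng+/- replicate 3, control replicate 3 or control replicate 4). The median r of Anpep and Enpep with the 4 erythroid genes was -0.82 and -0.79 over all arrays, and 0.13 and 0.11 without that array. With the macrophage list it was 0.53 and 0.62, and -0.0038 and 0.21 without it. Among the 21 pairs of measured members, r was positive for 13 and had an exact permutation p under 0.05 for 4. After Benjamini-Hochberg adjustment of the exact permutation p over the 21 pairs, 0 passed 0.05 by r, with a lowest adjusted p of 0.095. By ranks, Dpp4 and Ace had an adjusted exact permutation p of 0.026. The limma adjusted p below are adjusted over all genes for 1 member, not over the pairs. The pair with the highest r was Anpep and Enpep, with r = 0.92 (exact permutation p = 0.00868, limma adjusted p = 0.0444) and rho = 0.60 (exact permutation p = 0.109). Without Jag1+/-Rfng+/- replicate 5 their r was 0.63, and without the 2 arrays farthest in Anpep from their group means it was 0.68. By ranks the strongest relation was that of Dpp4 and Ace, which ran against each other with rho = -0.95 (exact permutation p = 0.00125), while their r was -0.65 (exact permutation p = 0.0733, limma adjusted p = 0.498) and -0.45 without the 2 arrays farthest in Dpp4 from their group means. Mme had its highest r with Ece1, with r = 0.63 (exact permutation p = 0.0624), against 0.30 without control replicate 5 and Jag1+/-Rfng+/- replicate 1, and its r with the 5 others ran from -0.11 (Dpp4) to 0.36 (Ace). Control replicate 5 set the sign of 3 of these, since without it r was -0.39 with Ace, -0.13 with Fap and 0.27 with Dpp4.

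**Figure D5:**
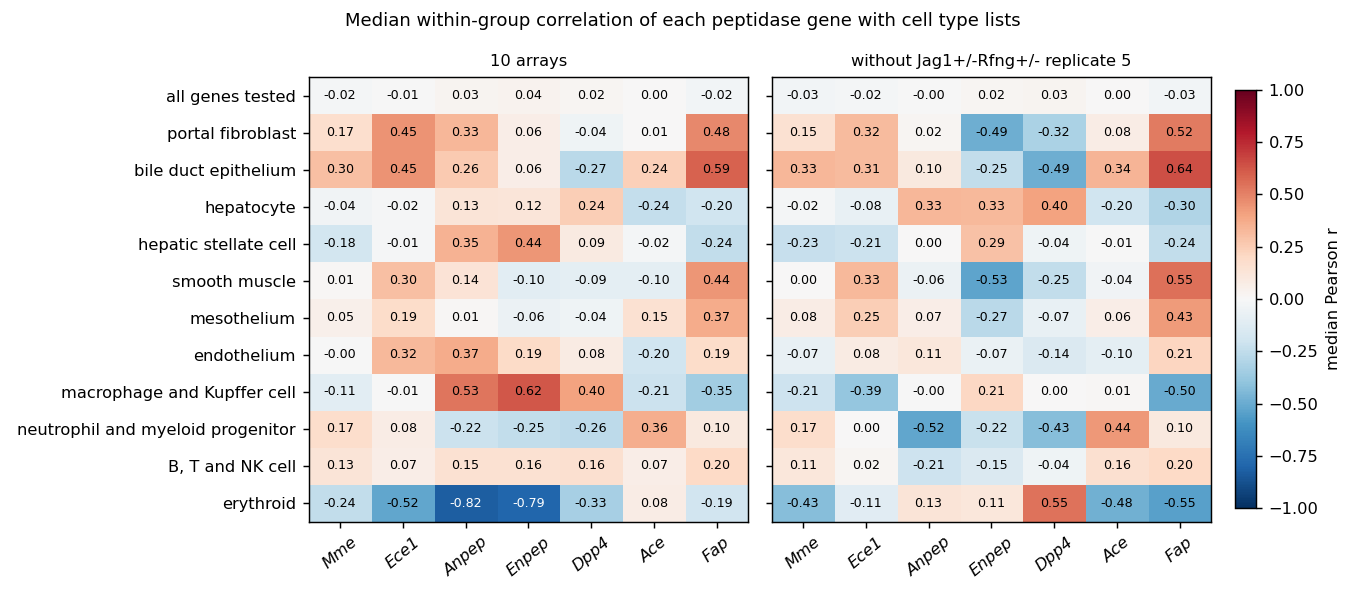
Median Pearson r, within groups, of each measured peptidase gene (columns) with the genes of each cell type list (rows), over all 10 arrays on the left and without Jag1+/-Rfng+/- replicate 5 on the right, coloured from -1 in blue to 1 in red. The erythroid values of Anpep and Enpep, -0.82 and -0.79 on the left, are 0.13 and 0.11 on the right, while those of Mme with fibroblast and duct genes, 0.17 and 0.30, are 0.15 and 0.33.

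The region around the start sites was read for Mme because it is the member that differed, and for Dpp4 because its window holds a match. RefSeq promoter windows of 300 bases, 250 before and 50 after a start site, were found for 7 of the 8 listed genes, with 13 windows in all and 3 for Mme. They were searched on both strands for GTGGGAA, a longer form of the binding motif of the Notch partner RBPJ, which contains the core TGGGAA, and for the GC box GGGCGG. In the sequences below (GRCm38.p6, 5′ to 3′ on the strand of the gene) these matches are in capitals.
Mme, chr3:63294961-63295260, plus strand: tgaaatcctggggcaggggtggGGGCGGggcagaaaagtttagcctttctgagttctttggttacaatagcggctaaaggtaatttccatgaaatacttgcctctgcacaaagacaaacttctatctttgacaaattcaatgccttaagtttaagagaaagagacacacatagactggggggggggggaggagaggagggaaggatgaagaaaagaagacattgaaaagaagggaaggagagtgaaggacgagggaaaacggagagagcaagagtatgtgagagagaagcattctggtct
Mme, chr3:63295622-63295921, plus strand: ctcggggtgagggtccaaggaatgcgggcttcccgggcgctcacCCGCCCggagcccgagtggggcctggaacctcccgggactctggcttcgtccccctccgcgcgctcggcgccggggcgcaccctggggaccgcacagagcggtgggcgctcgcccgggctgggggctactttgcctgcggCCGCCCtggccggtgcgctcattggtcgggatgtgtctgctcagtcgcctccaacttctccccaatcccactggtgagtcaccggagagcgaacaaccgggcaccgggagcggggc
Dpp4, chr2:62412182-62412481, minus strand: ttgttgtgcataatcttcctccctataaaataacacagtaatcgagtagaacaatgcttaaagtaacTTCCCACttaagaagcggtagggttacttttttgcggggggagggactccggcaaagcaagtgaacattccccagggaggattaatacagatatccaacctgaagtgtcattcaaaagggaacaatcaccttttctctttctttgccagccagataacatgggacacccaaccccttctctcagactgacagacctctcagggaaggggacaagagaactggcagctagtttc
The longer RBPJ form was in the Dpp4 window, as its reverse complement TTCCCAC, and in 1 of 4 Ece1 windows, and it was in none of the 3 Mme windows. It is in 6.38% of the 32851 promoter windows of the table, and the core is in 25.6%. The GC box was in all 3 Mme windows, in 1 copy in the first and 2 copies in the second, and is in 35.7% of the windows of the table. It was not particular to Mme. The Anpep and Lnpep windows and an Ace window held 4 copies each, and Ece1 windows held 2, 2 and 1. The other Ace window, the other Ece1 window and the Enpep and Dpp4 windows held 0. A match is only a match of letters, and its absence says nothing of binding elsewhere.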

How the data were processed

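RNA of portal tracts was labelled with biotin and hybridized to single-colour arrays, per the labels' protocols. The authors deposited a table of 33649 probe sets with log2 expression values between 1.08 and 12.47. The submitters' processing notes name RMA and Partek 6.6. No genome build is given. RMA commonly equalizes the arrays and compresses the folds of dim genes. Symbols came from the platform annotation (23521 probe sets with 1 symbol, 1814 with several), with the brightest probe set kept for each of 22180 genes. Groups and replicate numbers came from the sample titles. No pair of arrays was identical (0 pairs), and the table held 0 columns of no sample.

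Genotype differences were fitted by lmFit and eBayes of limma 3.58.1, under R 4.3.3 (no covariate, two-sided, Benjamini-Hochberg over all genes, threshold 0.05), with moderated standard errors and 95% intervals. Covariation was fitted in limma with group and the peptidase gene as terms. Exact permutation p-values of within-group correlations used all 14400 rearrangements of the arrays within the groups. Both fits were tested on simulated data. The genes named are the members, the targeted genes, cell type anchors, the 3 genes of each related list with the lowest unadjusted p, and the 5 highest and 5 lowest in r with Mme, over fibroblast and duct genes and over all genes, without predicted genes, small RNAs, sensory and immune receptors and sex-linked markers. Gcg was named for its place only. The members and lists were chosen with earlier results of these data known. Alternatives were leaving out arrays, a replicate block, same-number arrays only, other normalizations, a filter at the median level, the mean of probe sets, eBayes settings, array weights and cell type or sex covariates. The erythroid covariate and the same-number arrays without Jag1+/-Rfng+/- replicate 5 were added after the data were seen. Promoter sequences came from RefSeq.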

Additional observations from a re-analysis of the deposited data

Results flagged for a closer look

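Of 20 groups of 5 arrays examined (the 7 measured members and the portal fibroblast, bile duct and hepatocyte list means, in each group), 3 had an array far from the others, where chance gives about 1 in 20. Control replicate 5 was low for Mme at 4.58, against 5.28 to 5.42 on the other controls, and its gap to the nearest was 0.831 of the range. Control replicate 4 was high for Anpep at 9.13, with a gap of 0.798 of the range. Jag1+/-Rfng+/- replicate 5 was low for Enpep at 4.93, with a gap of 0.857 of the range.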

How the results depend on the processing

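The difference of Mme kept its direction under all 25 alternatives (-2.24 to -1.89 log2). These used the same arrays that chose Mme, so this is a description and not a test of the fall. The count of all genes called was 2. It was 11 among genes above the median level, where fewer genes were tested, 11 with trend and robust eBayes, 5 with array weights, 1 with the fibroblast covariate, 22 with the hepatocyte covariate, 0 with the same-number arrays without Jag1+/-Rfng+/- replicate 5 (1215 at an unadjusted p under 0.05), and 2 to 6 leaving out 1 array. Covariation with Mme called 0 genes under every alternative except 2 genes without the group term, which brings the genotype contrast back. The 6 other members had 200 calls together. These became 0 with the replicate block, 44 on the same-number arrays, 2 on these without Jag1+/-Rfng+/- replicate 5, 96 with cyclic loess, 324 with array weights, 430, 607, 393, 67 and 9 with the fibroblast, duct, hepatocyte, sex and erythroid covariates, 672 without the group term, and 1 to 440 leaving out 1 array, the lowest without Jag1+/-Rfng+/- replicate 5 and the highest without control replicate 4. Array weights gave Fap 268 calls. The causes were not tested. Deviations of arrays with the same replicate number correlated at -0.23 to 0.06, so the numbers are not taken as pairs. With the replicate block Mme differed by -2.09 log2, and the median r of Mme was -0.46 with fibroblast and -0.16 with duct genes. Fap had 24 alternatives, since the filter at the median level removed it. The other 6 members passed the adjusted threshold under 0 alternatives. Readings within the absent range limit what can be said of Fap, of the size of the fall of Mme and of the covariation with Mme.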
